A study of Homo sapiens with 4 samples.

Results

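The guanylate binding proteins GBP1 to GBP5 were followed here in HCC1954 cells, an established human breast cancer cell line, in which an shRNA silenced the palmitoyltransferase gene ZDHHC15 (shZDHHC15) or was scrambled (shCON). The members are the rows named GBP1, GBP2, GBP3, GBP4 and GBP5 in a table of read counts for 58735 genes, and all 5 passed the filter on low counts that left 15817 genes. They were chosen by family with their higher counts in shZDHHC15 cells already known, so their differences between the groups are described without a test. Each group held 2 samples. The labels name GIPZ vectors for the ZDHHC15 hairpin and a scrambled hairpin for the control cells, and cells without a hairpin were not analysed here. The series describes a stable knockdown, whereas the sample labels describe plasmid transfection with a harvest 36 h later. The labels do not say whether the numbers 1 and 2 stand for separate cultures, clones or hairpins, so the spread between them may be technical.

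Guanylate binding proteins are large GTPases of the dynamin superfamily that are best known as interferon-inducible effectors of cell-autonomous immunity. They bind GTP, assemble into coats on the membranes of bacteria and vacuoles, and help caspases and DNA sensors reach their ligands. GBP1, GBP2 and GBP5 end in a CaaX motif and are prenylated, which anchors them in membranes, while GBP3 and GBP4 are recruited without a prenyl group of their own. Epithelial cells make these proteins in response to interferon gamma and, more weakly, to type I interferon.

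The counts on genes summed to between 17560982 and 19118704 per sample. ZDHHC15 itself was counted 17617 and 15716 times in control cells and 0 times in each depleted sample, which allows up to 3 counts in each. The markers of the labelled cell type were present, with between 92598 and 101910 counts on ERBB2 in every sample. In these bulk samples, fewer cells with a transcript and less transcript per cell cannot be told apart.

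The 5 members lie on the minus strand of chromosome 1, in a span of 266 kb. The span also holds GBP7, which overlaps GBP2 and ends before GBP4, and the pseudogene PTGES3P1, between GBP1 and GBP2. From left to right the members are GBP3 (ENSG00000117226, 89006666 to 89022894), GBP1 (ENSG00000117228, 89052319 to 89065360), GBP2 (ENSG00000162645, 89106132 to 89150456), GBP4 (ENSG00000162654, 89181148 to 89198932) and GBP5 (ENSG00000154451, 89258950 to 89272804), in GRCh38 coordinates as the table gives them. RefSeq promoter windows (GRCh38.p14), each with 250 bases before and 50 bases from the start site on, were at hand for 3 of the 5 members (GBP1, GBP3 and GBP4) and for GBP6 and GBP7, neighbours of the same family. The windows were searched on both strands for GAAANNGAAA, the core of the interferon-stimulated response element. They were also searched for TTCNNNGAA, a strict form of the core of the gamma-activated site. The response element core was found in all 3 member windows and in neither GBP6 nor GBP7, against 3.57% of 35116 promoter windows of the same length. This strict gamma-activated form was found only in the GBP3 window among these 5, against 7.66% of all windows. In GBP3 it did not overlap the other match. Looser forms of the gamma-activated core were not searched, so a window without a match, such as that of GBP1, may still hold such a site. These are matches of letters and say nothing of binding. The stretches of the 3 members are shown with that of GBP6, in which this core was not found. A link between the core and the counts was not tested, and GBP2, GBP5 and GBP1P1 had no window. The stretches run on the strand of each gene, with the match to the response element core in capitals, which lies on the opposite strand. GBP1 is shown at chr1:89065209-89065458, GBP3 at chr1:89022855-89023116, GBP4 at chr1:89198937-89199192 (all minus strand) and GBP6 at chr1:89363809-89364058 (plus strand).
GBP1: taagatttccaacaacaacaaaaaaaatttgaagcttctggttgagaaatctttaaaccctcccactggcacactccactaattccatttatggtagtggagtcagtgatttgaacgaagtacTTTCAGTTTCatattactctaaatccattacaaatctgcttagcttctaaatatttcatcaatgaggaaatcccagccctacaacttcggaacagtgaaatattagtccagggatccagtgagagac
GBP3: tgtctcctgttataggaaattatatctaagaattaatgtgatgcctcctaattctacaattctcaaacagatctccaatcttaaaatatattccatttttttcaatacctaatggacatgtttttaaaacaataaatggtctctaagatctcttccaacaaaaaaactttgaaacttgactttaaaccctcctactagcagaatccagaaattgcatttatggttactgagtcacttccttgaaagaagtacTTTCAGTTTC
GBP4: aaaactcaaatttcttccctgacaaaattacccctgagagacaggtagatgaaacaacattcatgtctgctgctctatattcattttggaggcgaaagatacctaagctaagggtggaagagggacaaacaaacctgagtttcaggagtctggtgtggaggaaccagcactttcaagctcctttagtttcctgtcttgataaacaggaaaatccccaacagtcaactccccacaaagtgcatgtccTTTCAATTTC
GBP6: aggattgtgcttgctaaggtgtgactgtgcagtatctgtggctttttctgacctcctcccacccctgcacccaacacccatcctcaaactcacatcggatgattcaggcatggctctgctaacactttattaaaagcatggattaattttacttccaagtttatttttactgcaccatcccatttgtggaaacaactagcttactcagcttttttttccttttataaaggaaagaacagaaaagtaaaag
The same 10 letters were matched in GBP1 and GBP3, and those of GBP4 differed within the 2 free positions. The match began 127 bases before the RefSeq start of GBP1 and 4 bases before that of GBP4, and ran from base 3 to base 12 of the GBP3 transcript. The count table places the starts of GBP1 and GBP3 further upstream than RefSeq does, so that their matches fall inside the genes as counted. It places that of GBP4 further downstream, so that the match of GBP4 lies outside the gene as counted.

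GBP1, which binds bacterial lipopolysaccharide and starts the GBP coat, was by far the most abundant member. It was counted 1895 and 1742 times in control cells and 6952 and 6820 times upon ZDHHC15 depletion. In CPM, that is, counts scaled to a common library size with edgeR's TMM factors, its level was 104 ± 0.475 in shCON and 360 ± 18.3 in shZDHHC15 cells (SD, n = 2), or 1.80 as log2 fold change (standard error, SE, 0.0929). Both shZDHHC15 samples thus lay above both shCON samples, and the lower of them was 3.34-fold above the higher control.

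GBP2, which with GBP5 restrains furin and so the maturation of viral envelope proteins, received 239 and 199 counts in shCON and 1467 and 1474 counts in shZDHHC15 samples. Its level went from 12.5 ± 0.928 to 76.9 ± 2.61 CPM (SD, n = 2), or 2.62 as log2 fold change (SE 0.122). The shZDHHC15 samples were nearly equal and clear of the control samples. GBP5, the remaining prenylated member, was scarce in control cells, with 13 and 21 counts against 293 and 254 counts in shZDHHC15 samples. Its level went from 0.979 ± 0.376 to 14.3 ± 1.98 CPM (SD, n = 2), or 3.88 as log2 fold change (SE 0.27). The groups did not overlap, but the few control reads make this value less precise, and it was 4.31 without shCON replicate 2 and 3.49 without shCON replicate 1.

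GBP3 and GBP4 join the coat that GBP1 starts and take part in the recruitment of caspase-4. GBP3 received 236 counts in each shCON sample and 967 and 855 counts in the shZDHHC15 samples. Its level went from 13.5 ± 0.74 to 47.7 ± 5.92 CPM (SD, n = 2), or 1.83 as log2 fold change (SE 0.135), close to the value of GBP1. GBP4 received 21 and 14 counts in shCON and 1111 and 702 counts in shZDHHC15 samples. Its level went from 0.991 ± 0.228 to 47.7 ± 16.9 CPM (SD, n = 2), or 5.57 as log2 fold change (SE 0.305). The groups of GBP4 were the furthest apart of the family, with the lower shZDHHC15 sample 31.0-fold above the higher control, while its shZDHHC15 samples were the most unequal.

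**Figure D1:**
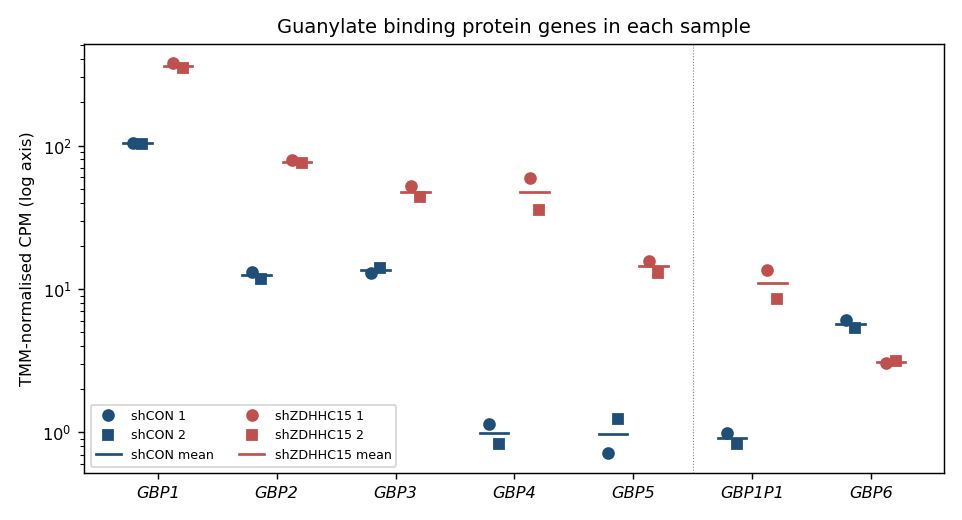
Level of each gene in each sample, in TMM-normalised CPM on a log axis. Circles are replicate 1, squares replicate 2 and lines group means. For GBP1 to GBP5 and GBP1P1 both shZDHHC15 samples lie above both shCON samples, and for GBP6 both lie below.

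In 5 of 5 members the shZDHHC15 samples lay above both shCON samples, as they did in 37.2% of the 15817 genes tested. The median log2 fold change of the members was 2.62, against 0.02 over all genes tested, and GBP1, the member with the lowest value, stood at rank 477, so that 3.02% of the genes tested had a log2 fold change as high or higher. GBP4 stood at rank 15, GBP5 at rank 77, GBP2 at rank 210 and GBP3 at rank 459. These values belong to the contrast with which the family was chosen and describe its size only. The 2 members with the fewest control reads, GBP4 and GBP5, had the largest fold changes, and the most abundant member had the smallest.

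Within the shZDHHC15 group, replicate 1 was the higher sample for 5 of 5 members, with a median log2 difference of 0.25, while 51.9% of all genes tested were higher in replicate 1. The difference of GBP4 was 0.73 on the log2 scale (with 0.5 CPM added), and 2.18% of the genes tested differed more between these samples. GBP1 differed by 0.10, less than 59.1% of the genes tested. Between the shCON samples, 3 of 5 members were higher in replicate 1, and GBP5 differed most, by 0.52, with replicate 2 the higher. Without shZDHHC15 replicate 1 the log2 fold change of GBP4 was 5.16, and without shZDHHC15 replicate 2 it was 5.89.

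Members can be compared with each other only per length of transcript. Divided by the gene lengths of the table, the summed level of the 5 members was 26.2 and 26.1 CPM per kb in the shCON samples and 111 and 99.1 CPM per kb in the shZDHHC15 samples. GBP1 made up 79.5% and 79.2% of this sum in shCON cells and 67.3% and 70.2% in shZDHHC15 cells. GBP4 made up 0.718% and 0.519% in shCON cells and 8.77% and 5.89% in shZDHHC15 cells. The order in shCON cells was GBP1, GBP3, GBP2, GBP4 and GBP5, of which the neighbours GBP4 and GBP5 overlapped between samples. In shZDHHC15 cells it was GBP1, GBP2, GBP3, GBP4 and GBP5, and here GBP2 and GBP3 overlapped. The table's length is that of all annotated exons of a gene joined, which is 8143 bases for GBP5 and 6276 for GBP2, whereas their principal transcripts in GENCODE release 29 have 2011 and 2220 bases. With principal transcript lengths, an alternative chosen after seeing the data, GBP2 stood above GBP3 in both groups and GBP5 stood above GBP4 in shCON cells, while GBP4 and GBP5 overlapped in shZDHHC15 cells. The share of GBP1 was then 76.2% in each shCON sample and 63.7% and 65.5% in the shZDHHC15 samples, so GBP1 came first with either length. The share of GBP4 was 0.419% and 0.303% in shCON and 5.05% and 3.34% in shZDHHC15 samples with these lengths.

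**Figure D2:**
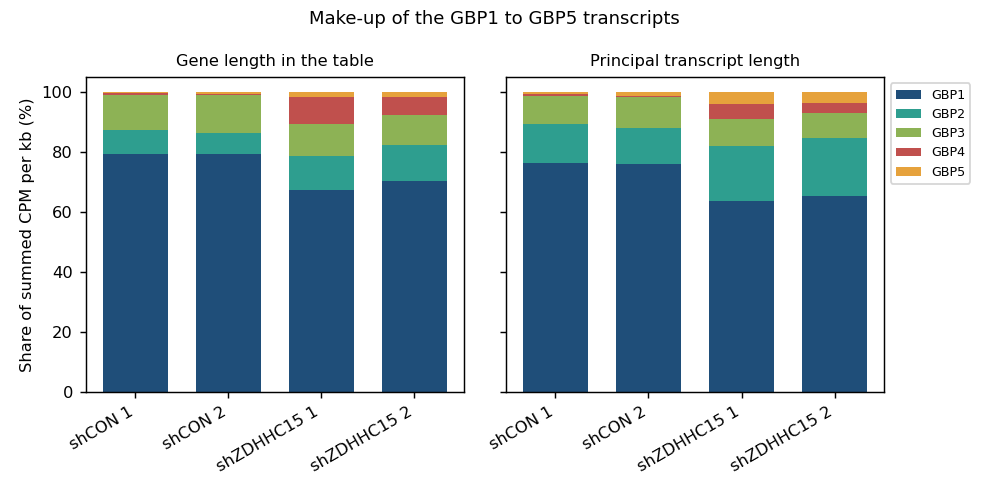
Share of each member in the summed level of GBP1 to GBP5, in percent of CPM per kb, for each sample, by the gene length of the table (left) and by the principal transcript length (right). GBP1 takes the largest share in every bar, from 63.7% to 79.5%.

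Some reads could fall on more than a single family gene. Of all stretches of 100 bases in the GENCODE transcripts of GBP2, 8.42% also occur in transcripts of GBP7, whose exons overlap GBP2, and 1.09% of those of GBP1 occur in the pseudogene GBP1P1. GBP3 and GBP5 shared none of this length, and GBP4 shared 0.0975%. With stretches of 50 bases, 9.62% of GBP1, 10.2% of GBP2, 4.76% of GBP3, 4.03% of GBP4 and 0.396% of GBP5 were shared with other genes. Annotated antisense genes overlap exons of GBP4 (AC099063.4) and GBP5 (AC099063.1), and each received 0 counts in all 4 samples. The read length is not given in the sources used here.

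The cluster holds further members of the family that the choice of genes left out. GBP6, on the opposite strand, fell, from 110 and 90 counts in shCON to 57 and 62 counts in shZDHHC15 samples. Its level went from 5.68 ± 0.494 to 3.11 ± 0.0688 CPM (SD, n = 2), or -0.87 as log2 fold change (SE 0.227, adjusted p = 0.00653 by the quasi-likelihood test of edgeR, Benjamini-Hochberg adjusted over all genes). Both depleted samples lay below both control samples, as in 35.3% of all genes tested, and every alternative fit kept this call, with log2 fold changes between -0.96 and -0.80. GBP7 received 0 and 0 counts in shCON and 3 and 1 counts in shZDHHC15 samples, all within what a count of 0 allows. The transcribed pseudogene GBP1P1 rose, from 18 and 14 to 252 and 166 counts, or 3.58 as log2 fold change (SE 0.328, adjusted p = 8.51e-07 by the same test). Of its own stretches of 50 bases, 16.6% also occur in other genes, most of them in GBP1, and of those of 100 bases 2.34% occur in GBP1. GBP1 had far more counts, and the part of its reads in the counts of GBP1P1 was not tested. At this threshold 21.7% of all genes tested were higher and 20.3% lower in shZDHHC15 cells, and 7.51% and 3.79% also changed by more than 1 on the log2 scale.

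Outside the family, 6 protein-coding genes that start within 500 kb of the span of GBP1 to GBP5 were tested. Of these, 2 rose and 0 fell, against 21.7% and 20.3% of all genes tested. KYAT3, a kynurenine aminotransferase gene next to GBP3, was at -0.21 as log2 fold change (SE 0.148, adjusted p = 0.27 by edgeR), and RBMXL1, which shares its locus, was at 9.6e-04 (SE 0.129). GTF2B, a general transcription factor gene, was at 0.13 (SE 0.125). LRRC8B, a subunit of the volume-regulated anion channel, rose by 0.60 (SE 0.152, adjusted p = 0.0056), and its neighbour LRRC8C was at -0.08 (SE 0.192). PKN2, a protein kinase gene, rose by 0.45 (SE 0.13, adjusted p = 0.0117). The calls of LRRC8B and PKN2 were lost when low counts were not filtered (adjusted p = 0.0745 and 0.107) and without shZDHHC15 replicate 1 (adjusted p = 0.101 and 0.0544), and that of PKN2 also without shCON replicate 2 (adjusted p = 0.0822).

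**Figure D3:**
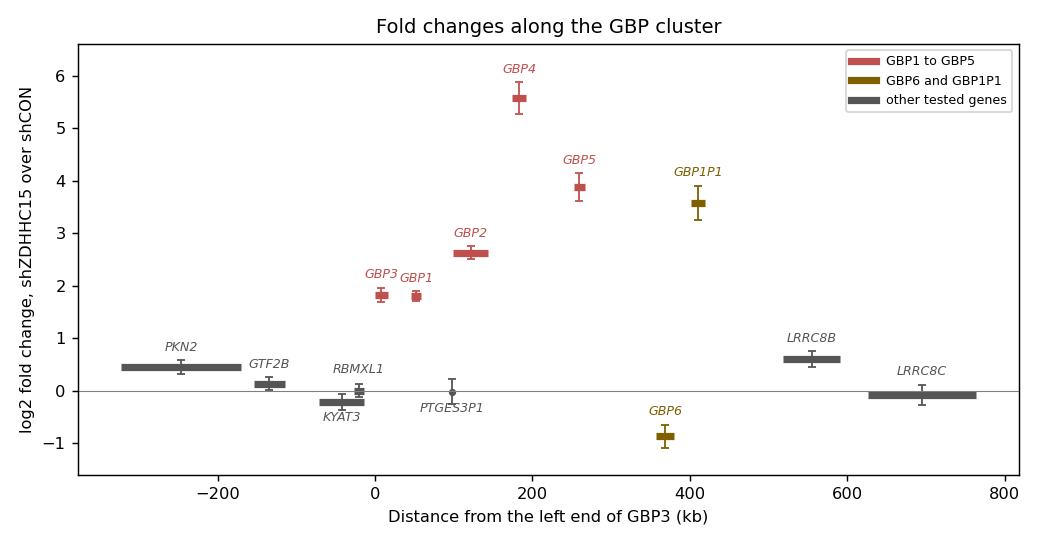
log2 fold change (shZDHHC15 over shCON) of the tested genes along the cluster, against the distance from the left end of GBP3 in kb. Bars span each gene and whiskers show the standard error. GBP1 to GBP5 lie between 1.80 and 5.57, GBP6 at -0.87, and genes outside the family between -0.21 and 0.60.

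Genes that carry the interferon gamma signal, and inhibitors of it, were read from a list of 11, of which 10 were tested. At an adjusted p under 0.05, 7 rose, 0 fell and 3 did not pass, with a median log2 fold change of 0.71. At the same threshold 21.7% of all genes tested rose and 20.3% fell. IFNG itself, the ligand, received 0 counts in all 4 samples. Both receptor chains rose, IFNGR1 by 0.93 (SE 0.101, adjusted p = 5.29e-06 by edgeR) and IFNGR2 by 1.18 (SE 0.104, adjusted p = 5.21e-07). The receptor kinases JAK1 and JAK2 rose by 1.00 (SE 0.0919) and 1.34 (SE 0.138). IRF1, which binds the response element, rose by 0.49 (SE 0.0979, adjusted p = 9.69e-04). Of the inhibitors, SOCS3 rose by 0.40 (adjusted p = 0.0243), a call lost with DESeq2 (0.052), with no filter on low counts (0.147), without shCON replicate 1 (0.148) and without shZDHHC15 replicate 1 (0.238). SOCS1 (log2 fold change 0.38, adjusted p = 0.119), PTPN2 (0.21, 0.135) and PIAS1 (0.19, 0.202) did not pass.

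Of 11 genes of the type I and type III interferon signal, 9 were tested, with 7 higher and 0 lower. Their median log2 fold change was 1.78. The shares over all genes tested were 21.7% higher and 20.3% lower. STAT2 rose by 1.90 (SE 0.0993, adjusted p = 1.66e-09 by edgeR) and its partner IRF9 by 1.88 (SE 0.236, adjusted p = 1.93e-05). IRF7, the factor that sustains interferon transcription, rose by 1.78 (SE 0.104), and USP18, the ISG15 protease that damps the receptor, by 3.47 (SE 0.141). Of the receptor genes, IFNLR1 rose by 1.27 (SE 0.239) and IFNAR1 by 0.32 (adjusted p = 0.0217 by edgeR). The call of IFNAR1 was lost with no filter on low counts (0.0999), and its log2 fold change was 0.23 without shZDHHC15 replicate 1. IFNAR2 (log2 fold change 0.71, adjusted p = 0.0776) and the kinase gene TYK2 (0.16, 0.225) did not pass. IFNB1, which encodes interferon beta, received 1 and 0 counts in shCON and 4 and 3 counts in shZDHHC15 samples. IFNL1, a type III interferon gene, received 5 and 2 against 12 and 15 counts, a log2 fold change of 1.79 (adjusted p = 0.0347), a call lost with DESeq2 (0.19), with no filter on low counts (0.0837), without shCON replicate 2 (0.168) and without shZDHHC15 replicate 2 (0.095). Without shCON replicate 1 the log2 fold change of IFNL1 was 2.49.

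Relatives of the guanylate binding proteins in the dynamin superfamily went both ways. The atlastins, membrane-fusing GTPases of the endoplasmic reticulum with the fold nearest to that of GBPs, were all tested. ATL3 fell by 0.45 (SE 0.0958, adjusted p = 0.00169 by edgeR), while ATL2 (log2 fold change -0.18, adjusted p = 0.151) and ATL1 (-0.11, adjusted p = 0.815) did not pass. Of 11 dynamin, mitofusin and EHD genes, 4 rose and 1 fell, with a median log2 fold change of 0.24. Among all genes tested, 21.7% rose and 20.3% fell. DNM1 rose by 1.34 (SE 0.271, adjusted p = 0.00112), from 29 and 32 to 79 and 90 counts. Of the others called, OPA1 (log2 fold change 0.33) and EHD3 (-0.48) lost the call with no filter on low counts (0.1 and 0.0831 as adjusted p by edgeR) and without either shZDHHC15 sample or shCON replicate 2, and EHD3 also with DESeq2 (0.0944) and with library size alone as scaling (0.0698). Among other interferon-inducible GTPases, MX2 rose from 7 and 1 to 174 and 128 counts, or 5.08 as log2 fold change (SE 0.449, adjusted p = 5.82e-07), and MX1 did not pass (log2 fold change 0.77, adjusted p = 0.0564). With so few control reads, the log2 fold change of MX2 was 6.88 without shCON replicate 1 and 4.34 without shCON replicate 2. IRGM received 2 and 1 counts in shCON and 0 counts in each shZDHHC15 sample, and GVINP1 1 count in all.

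Enzymes that prenylate GBP1, GBP2 and GBP5, supply the lipid or act on the prenylated end were read from a list of 8. All were tested. At an adjusted p under 0.05, 2 rose and 1 fell, with a median log2 fold change of 0.06. Over all genes tested, 21.7% rose and 20.3% fell, so these counts lie near the shares of the whole table. FNTA, the subunit that both CaaX prenyltransferases share, rose by 0.33 (SE 0.102, adjusted p = 0.0178 by edgeR), and its partners FNTB (log2 fold change -0.17, adjusted p = 0.459) and PGGT1B (0.26, adjusted p = 0.146) did not pass. FDPS, which makes farnesyl diphosphate, rose by 0.38 (SE 0.0981, adjusted p = 0.00658). RCE1, the protease that trims prenylated CaaX ends, fell by 0.63 (SE 0.105, adjusted p = 2.43e-04). The call of FNTA was lost when low counts were not filtered (adjusted p = 0.0926), without shCON replicate 2 (0.0781) and without shZDHHC15 replicate 1 (0.178), and that of FDPS without shZDHHC15 replicate 1 (0.0846).

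Partners of the GBP coat and the effectors behind it went both ways. Of 20 listed, 18 were tested, with 9 higher, 4 lower and 5 not passing, and a median log2 fold change of 0.28. Across all genes tested, 21.7% were higher and 20.3% lower. CASP1, the inflammasome caspase, rose from 23 and 40 to 261 and 198 counts, or 2.74 as log2 fold change (SE 0.276, adjusted p = 2.26e-06 by edgeR). AIM2, the sensor of cytosolic DNA, rose by 2.28 (SE 0.285), and APOL3, which dissolves bacterial membranes beside GBP1, rose by 2.54 (SE 0.269). RNF213, a ubiquitin ligase for bacterial lipopolysaccharide, rose by 2.23 (SE 0.139, adjusted p = 1.29e-08). CASP4, the lipopolysaccharide-sensing caspase that the coat recruits, was at 837 and 768 counts in shCON and 877 and 969 counts in shZDHHC15 samples (log2 fold change 0.08, standard error 0.106, adjusted p = 0.593). Its substrate GSDMD, the pore-forming gasdermin, was at -0.0050 (SE 0.103, adjusted p = 0.976). The inflammasome sensor gene NLRP3 fell, from 226 and 227 to 19 and 9 counts, or -4.13 as log2 fold change (SE 0.284, adjusted p = 3.86e-08). This value was -4.80 without shZDHHC15 replicate 1 and -3.65 without shZDHHC15 replicate 2. The cytokine gene IL18 fell by 0.55 (SE 0.12, adjusted p = 0.00204), and PIM1, the kinase that phosphorylates GBP1 and holds it inactive, fell by 0.56 (SE 0.0939, adjusted p = 2.45e-04). PYCARD, the inflammasome adaptor, received 0 and 2 counts in shCON and 0 and 1 counts in shZDHHC15 samples. The subunits of the linear ubiquitin ligase that GBP-coated bacteria attract were unequal, with RNF31 up by 0.49 (SE 0.111), RBCK1 up by 0.43 (SE 0.0915) and SHARPIN down at -0.37 (SE 0.105, adjusted p = 0.0117). The call of SHARPIN was lost without shZDHHC15 replicate 1 (adjusted p = 0.0985).

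**Figure D4:**
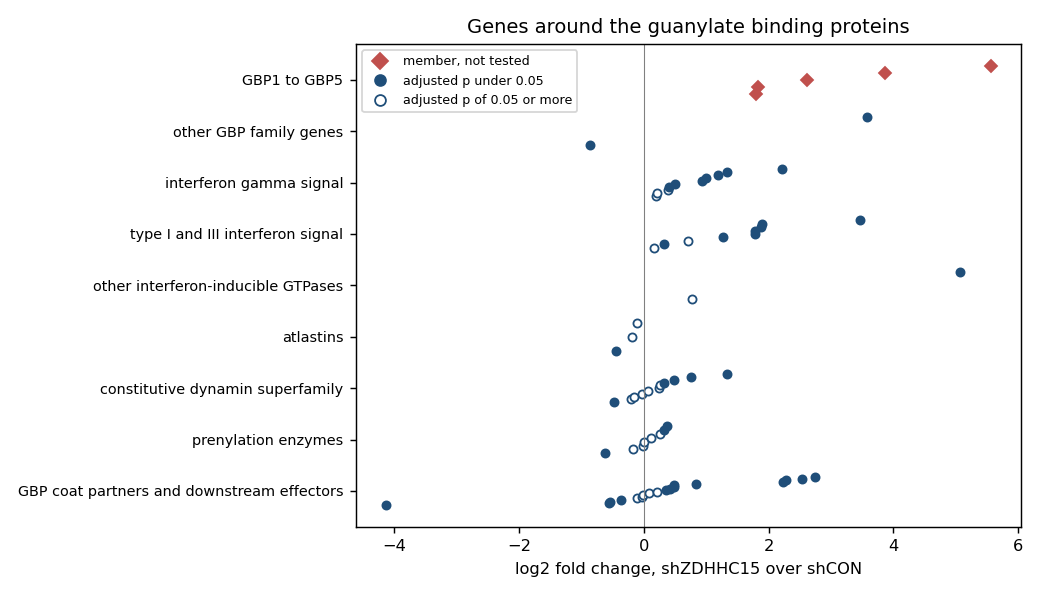
log2 fold change (shZDHHC15 over shCON) of GBP1 to GBP5 (diamonds, not tested) and of the tested genes of each list (circles, filled where the adjusted p was under 0.05). GBP1 to GBP5 lie at 1.80 or above. In the interferon gamma list 7 of 10 circles are filled, all to the right of 0, and the coat partners run from NLRP3 at -4.13 to CASP1 at 2.74.

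The protein-coding genes whose profile over the 4 samples was nearest to the mean profile of the 5 members were SP110, HELZ2, OAS3, BATF2 and CEACAM1. Likeness was the Euclidean distance between log2(CPM + 0.5) values centred on each gene's mean, and it ran from 0.0889 for SP110 to 0.133 for CEACAM1, while the members themselves lay between 0.372 (GBP2) and 2.12 (GBP4) from their mean. SP110 encodes a nuclear body protein, and its level was 9.87 and 10.8 CPM in shCON and 86.8 and 75.5 CPM in shZDHHC15 samples. OAS3 encodes a synthetase of 2-5A, with 154 and 160 CPM in shCON and 1387 and 1151 CPM in shZDHHC15 samples. With 4 samples in 2 groups, such a profile holds little more than the difference between the groups.

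Markers of leukocytes, endothelium and fibroblasts were read in the same samples, since immune cells are a source of interferon gamma and of GBP5. Of 19 markers, 6 received 0 counts in every sample (CD2, CD3D, CD3E, FCGR3A, MS4A1 and LUM), and 8 stayed at or under 3 counts in every sample. The leukocyte gene PTPRC received 3 and 1 counts in shCON and 4 and 3 counts in shZDHHC15 samples. Some other leukocyte markers were counted more often. CSF1R received 153 and 177 counts in shCON and 68 and 105 counts in shZDHHC15 samples. CD8A received 22 and 21 against 14 and 5 counts, and CD14 received 9 and 5 against 25 and 22 counts. The summed level of the list was 65.0 and 69.8 CPM in shCON and 120 and 112 CPM in shZDHHC15 samples. Its largest part was the endothelial marker CDH5, with 45.3 ± 1.40 CPM in shCON and 70.7 ± 7.08 CPM in shZDHHC15 samples (SD, n = 2). The log2 fold change of CDH5 was 0.65 (adjusted p = 2.84e-04 by edgeR). Of 6 markers tested, 4 rose and 2 fell, against 21.7% and 20.3% of all genes tested. The largest change was that of PECAM1, an adhesion molecule of endothelium and blood cells, from 75 and 56 to 666 and 405 counts. The part of these markers in the values of the guanylate binding proteins was not tested. Of 8 epithelial and HER2 markers, 1 rose and 6 fell, among them KRT8 (log2 fold change -1.62) and KRT18 (-1.58).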

How the data were processed

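RNA-seq libraries of HCC1954 cells (shCON and shZDHHC15, 2 samples each) were made with the NEBNext Ultra kit from total RNA. The authors deposited raw read counts per gene, not normalised, along with the position and length of each gene. The submitters' processing notes name hg38, HISAT2, StringTie and SAMtools. The counting tool, the annotation, the read length and the use of strand are not given in the sources used here. The 8 family genes' lengths equal the joined exon lengths of GENCODE release 29. All 4 columns of counts were used.

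Genes were filtered with filterByExpr, scaled with TMM and fitted with edgeR 4.0.16 (glmQLFit and glmQLFTest, R 4.3.3, limma 3.58.1), with Benjamini-Hochberg adjustment over 15817 genes. This test shares its estimate of spread among genes. Standard errors are the fold change over the root of F. A permutation of 2 against 2 samples cannot give a two-sided p below 0.333. The members, gene lists and motifs were chosen with earlier results of these data known. Named were the members, any list gene, annotated genes starting within 500 kb, and the nearest profiles. A gene of the interferon gamma list is counted with it but not reported here. The fit was tested on simulated data. A chi-square over genes with at least 20 counts summed over a pair gave 8.32 per degree of freedom between shCON and 6.79 between shZDHHC15 samples, where counting noise alone gives about 1. Floors and depth cover counting error only. Alternatives were other scalings, DESeq2 1.42.0, other filters, edgeR's older dispersion estimate, a replicate block and each sample left out. Promoter windows came from RefSeq (GRCh38.p14). Python 3.11.15 was used for sequences and figures.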

Additional observations from a re-analysis of the deposited data

How the results depend on the processing

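The direction of each of the 5 members was the same under every alternative. Their median log2 fold change ran from 2.59 to 2.70 over the 8 alternatives that kept all samples and from 2.55 to 2.68 with each sample left out. The group then holds 1 sample, which is assumed to vary like the other group. With no filter on low counts, 2282 genes were higher across the table in place of 3427, with more genes tested. With each sample left out the higher genes numbered 2537 to 3489 and the lower genes 2200 to 3457, and the list genes called higher 26 to 32 and lower 6 to 10, against 31 and 8 of 63 tested. Library size alone as scaling moved the median of all genes from 0.02 to 0.09 and gave 3926 higher and 2545 lower genes (60.7% of calls higher, against 51.6%). The sample numbers 1 and 2 recur in both groups, but no label ties a number to a shared culture. With the replicate block, 3723 genes were higher and 3502 lower, and the median of the members was 2.63, and the deviations of same-numbered samples correlated at 0.061, a value that 2 by 2 samples make equal for both numbers. Values near 0 changed sign without passing the test. GSDMD was 0.0065 with at least 10 counts in every sample and 0.0706 with library size only. RBMXL1 was -0.0105 with the DESeq2 test, -0.0112 with its size factors, -0.0171 with no filter on low counts and -0.030 with upper-quartile factors. With samples left out, ATL1 ran from -0.395 to 0.146, GSDMD from -0.0966 to 0.0633, LRRC8C from -0.328 to 0.211 and RBMXL1 from -0.0691 to 0.0693. MX1 passed with at least 10 counts in every sample (adjusted p = 0.0368) and with library size only (0.0398). Of the members' single values, 2 moved by more than the spread between replicates, GBP1 to 1.87 with library size only and GBP5 to 4.31 without shCON replicate 2. Depth limits GBP4 and GBP5 in shCON cells, where each sample held 21 counts or fewer.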

Other observations

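Each member also had its own nearest protein-coding genes by the distance used for their mean. GBP1 lay nearest to CEACAM6, an adhesion molecule (distance 0.0198), and next to NLRC5, the transactivator of MHC class I genes (0.0796). GBP2 lay nearest to BTN3A3 (0.077), GBP3 to LGALS3BP (0.0321) and IFITM3 (0.037), and GBP5 to RTP4 (0.15) and LGALS9 (0.196). GBP4 had no gene as near as these, and the nearest was AKR1C2, an aldo-keto reductase (0.298), followed by the chemokine gene CXCL11 (0.325) and TRIM22 (0.327). CXCL11 went from 2.30 and 2.25 CPM in shCON to 90.4 and 62.6 CPM in shZDHHC15 samples, with replicate 1 the higher as for GBP4.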
